A study of Homo sapiens with 16 samples.

Results

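The 10 genes described here, KLF2, KLF3, KLF4, KLF5, KLF6, KLF7, KLF9, KLF10, KLF11 and KLF13, encode Krüppel-like transcription factors. They were chosen by symbol, from a list drawn up with group comparisons of these same libraries already known, so the counts and p-values below describe these genes and give no independent support to any pattern. Of the 62700 genes in the table of normalized counts, 18 were KLF genes, and 10 of these were on the list. All 10 passed the minimum of 10 normalized counts on average over the libraries. KLF12, KLF15 and KLF16 passed it too but were not on the list, while KLF1, KLF8, KLF14, KLF17 and KLF18 did not pass. OCI-AML3, an established cell line from an acute myeloid leukemia (AML), was profiled by RNA-seq in 16 libraries. Untreated cells gave 4 libraries. The 4 other groups of 3 libraries were treated with ATRA (all-trans retinoic acid, a ligand of all retinoic acid receptors), with AM80 (Am80, tamibarotene, a synthetic retinoid that prefers the receptor RARA), with ATRA, GSK-LSD1 and MB3, or with AM80, GSK-LSD1 and MB3. GSK-LSD1 inhibits the histone demethylase LSD1, and MB3 inhibits the histone acetyltransferase GCN5. Treatment lasted 3 h. Cell lines received either retinoid at 0.1 µM, and in the combinations GSK-LSD1 at 0.1 µM together with MB3 at 100 µM, doses that the labels do not state for these libraries. No group received the inhibitors without a retinoid, so their effect was measured only beside ATRA or Am80. All samples came from 1 cell line, and the labels do not say whether replicates were separate cultures, so p-values measure the spread between these samples, which may be technical.

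Krüppel-like factors bind GC-rich DNA, such as the GC box and the CACCC element, through a conserved set of zinc fingers at the C-terminus. They differ in their N-terminal part, by which KLF3 recruits the corepressor CtBP, KLF9, KLF10, KLF11 and KLF13 recruit the corepressor SIN3A, and KLF2, KLF4, KLF5, KLF6 and KLF7 act mostly as activators through acetyltransferases such as p300. In the myeloid lineage KLF4 is known for its role in monocyte differentiation, KLF2 for keeping monocytes and lymphocytes quiescent, and KLF6 for macrophage activation. Because the zinc fingers are similar between members, reads from them can align to more than 1 gene, and the treatment of such reads is not given in the sources used here.

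KLF2 had the largest rise and KLF4 the largest fall of the members, and the sequences before their start sites are shown because Krüppel-like factors are themselves regulated through GC boxes. They are the 250 bases before the start site in RefSeq on build GRCh38.p14, KLF2 at chr19:16324576-16324825, plus strand and KLF4 at chr9:107489770-107490019, minus strand, written 5′ to 3′ along the gene, with GC boxes (GGGCGG on either strand) and a match to the MEF2 site in capitals. Starts differ between annotations. GENCODE puts the 5′ end of KLF4 at 107490482, so the KLF4 sequence lies wholly inside that gene. It puts the start of KLF2 at 16324817, within the last bases of the KLF2 sequence.
KLF2: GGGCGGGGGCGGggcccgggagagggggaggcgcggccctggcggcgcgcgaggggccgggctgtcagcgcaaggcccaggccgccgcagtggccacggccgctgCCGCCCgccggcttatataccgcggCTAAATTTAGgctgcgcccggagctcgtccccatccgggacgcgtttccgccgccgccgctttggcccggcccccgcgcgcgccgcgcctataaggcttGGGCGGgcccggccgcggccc
KLF4: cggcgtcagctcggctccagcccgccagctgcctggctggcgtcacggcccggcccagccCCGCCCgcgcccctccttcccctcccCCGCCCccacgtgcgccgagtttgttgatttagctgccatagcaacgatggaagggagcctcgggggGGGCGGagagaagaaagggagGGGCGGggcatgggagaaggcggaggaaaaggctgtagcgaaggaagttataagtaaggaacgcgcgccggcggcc
Each sequence held 4 GC boxes, the first pair of which adjoin in KLF2, and GC content was 80.0% for KLF2 and 69.2% for KLF4. KLF2 also held 1 match to the MEF2 site, starting 120 bases before the start. MEF2 factors are transcription factors downstream of the kinase ERK5 and are known activators of KLF2. Over all 35116 windows in the RefSeq promoter table (250 bases before to 50 after a start), 45.0% held a GC box and 2.99% a MEF2 site on either strand. Of the members, 8 had 13 windows that were searched, and among these the MEF2 site was found in KLF2 and in no other. The half-site of retinoid receptors (AGGTCA, in 13.8% of all windows) was found in 1 window of KLF7 and in none of the other 12, and the cAMP response element (TGACGTCA, in 1.85%) in 1 window of KLF11. A match to letters is a description and not a binding site, and a missing match says nothing about a factor's action through other elements.

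Library depth lay between 11963898 and 33789718 reads, with Am80 replicate 2 the deepest. This library also stood apart in a second measure, the trend of its values with the GC content of transcripts, which was -0.13 log2 units per 10% GC, against 0.08 and 0.13 in the other Am80 libraries. The 4 untreated and 3 ATRA libraries had slopes of 0.05 to 0.19, the highest in untreated replicate 4, and the 6 libraries with inhibitors had slopes of -0.22 to -0.03. The slope thus moved with the inhibitors, and values with the GC trend removed, a setting added once the data had been seen, are given beside results they change by much. By chi-square per degree of freedom, which measures how far a pair of libraries differs beyond counting noise, untreated replicate 4 stood apart. Its pairs had 15.6 to 23.4, against 3.68 to 5.33 among the other untreated pairs. Pairs with Am80 replicate 2 had 18.3 and 28.2, against 4.73 between the other Am80 libraries. Myeloid markers were present in all libraries, with a summed level of 9 genes between 22647 and 30224 normalized counts, and CD33, a surface antigen of myeloid cells, had 1359 ± 23.6 (SD, n = 4) in untreated cells. The summed level of 4 T and NK cell markers lay between 28.3 and 67.6 and of 5 erythroid and megakaryocyte markers between 21.7 and 40.5, with the T cell marker CD3D and the B cell marker MS4A1 at 0 in all libraries. The 4 epithelial and stromal markers summed to between 989 and 2781, almost all of it PECAM1, an adhesion molecule that myeloid cells also make, with EPCAM below 1 normalized count on average in each group. PECAM1 rose with both retinoids (log2 fold change 1.25 with ATRA and 1.29 with Am80). Its part in the members' levels was not tested. In RNA from whole cultures, a change in the share of cells that express a gene and a change per cell cannot be told apart.

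Per transcript length, the members spanned a wide range in untreated cells. On the scale of TPM, reads per base of transcript scaled to a fixed library total, KLF10 had 31.1 ± 3.09 (SD, n = 4) and KLF6 29.6 ± 1.97, and their libraries overlapped. The next group began with KLF4 at 17.6 ± 0.952 TPM, below every library of KLF6, followed by KLF2 at 16.9 ± 1.97, KLF11 at 14.5 ± 2.84, KLF9 at 11.7 ± 0.890, KLF7 at 11.6 ± 2.14 and KLF3 at 10.3 ± 1.67, each overlapping its neighbour. KLF13 at 5.35 ± 0.674 TPM and KLF5 at 1.29 ± 0.277 TPM stood below, without overlap. With the Am80 combination the order was led by KLF2 at 83.3 ± 5.33 TPM, followed by KLF6 at 17.8 ± 0.942 and KLF10 at 15.1 ± 0.213. KLF2 made up 11.3% ± 1.95 (SD, n = 4) of the summed TPM of the 10 members in untreated cells, 27.3% ± 1.30 (SD, n = 3) with ATRA, 26.8% ± 5.66 (SD, n = 3) with Am80, 42.2% ± 0.549 (SD, n = 3) with the ATRA combination and 49.0% ± 3.18 (SD, n = 3) with the Am80 combination. The sum itself moved less, from 149.9 ± 11 TPM (SD, n = 4) in untreated cells to 169.9 ± 0.467 TPM (SD, n = 3) with the Am80 combination. With Am80 alone the sum was 139.9 ± 7.32 TPM (SD, n = 3). Over all 18 KLF genes the sum was 240.2 ± 9.03 TPM (SD, n = 4) in untreated cells and 227 ± 3.55 TPM (SD, n = 3) with the Am80 combination, lower rather than higher. The shares and sums follow from the members' own changes described below.

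**Figure D1:**
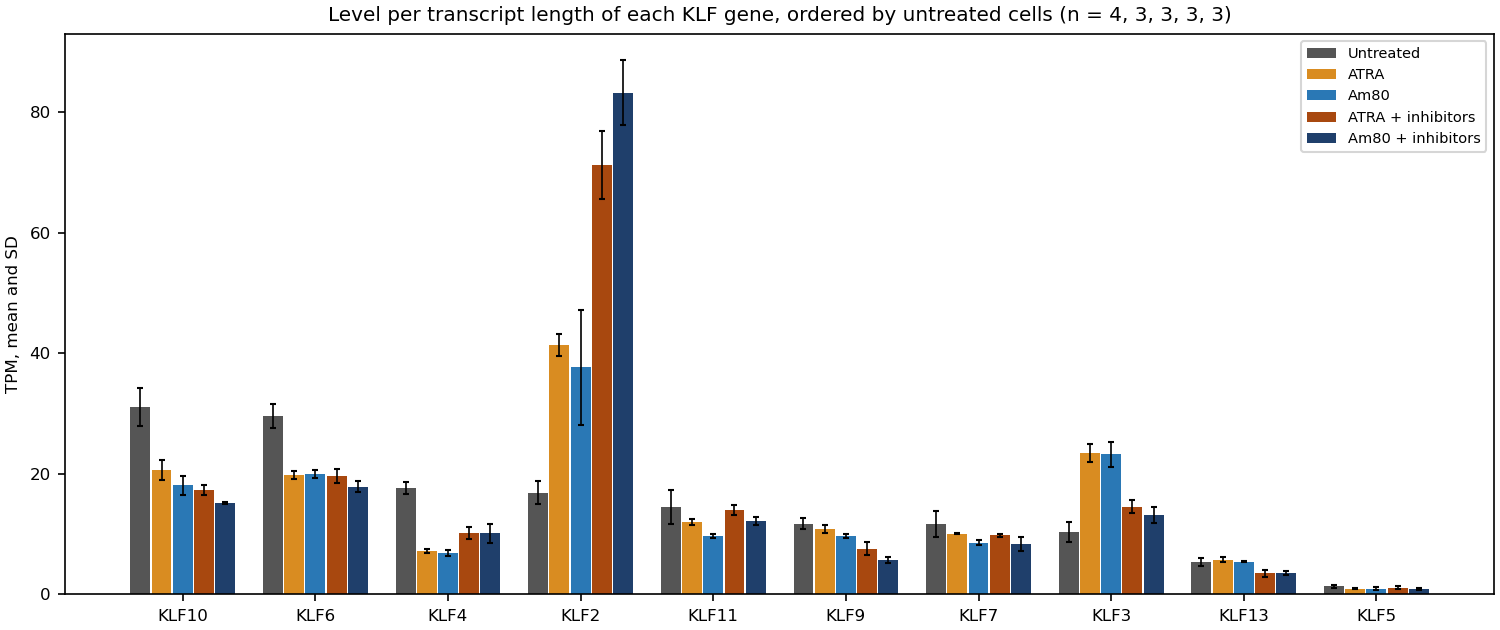
Level per transcript length of the 10 KLF genes, in TPM (vertical axis), as the mean of each group with its SD (bars and error bars, n = 4 untreated and 3 in each other group), ordered by untreated cells. KLF10 and KLF6 led in untreated cells at 31.1 and 29.6 TPM, and KLF2 led in every treated group, at 83.3 TPM with the Am80 combination.

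A gene was called changed at an adjusted p-value under 0.05 (limma, Benjamini-Hochberg over 14643 genes) and a change of at least 1.5-fold, and "rose" and "fell" are used for called changes only. ATRA changed 5 of the 10 members against untreated cells, KLF2 and KLF3 higher (6.52% of all genes tested were called higher) and KLF4, KLF6 and KLF10 lower (2.94% called lower). Am80 changed 4 members, again KLF2 and KLF3 higher (6.41% called higher) and KLF4 and KLF10 lower (3.76% called lower). With the inhibitors, 4 members differed from untreated cells for ATRA, with KLF2 and KLF3 higher (14.2% called higher) and KLF4 and KLF10 lower (14.8% called lower), and 4 for Am80, with KLF2 higher (12.9% called higher) and KLF4, KLF9 and KLF10 lower (13.1% called lower). Against the retinoid alone, the inhibitors raised KLF2 and KLF4 beside ATRA (8.15% called higher) and lowered 0 members (11.4% called lower). Of the members not called there, KLF3, KLF9 and KLF13 were below the 1.5-fold limit with adjusted p-values of 0.000445, 0.0122 and 0.00145 (limma), and edgeR and DESeq2 called the same number of members, 2. Beside Am80 the inhibitors raised KLF2 and KLF4 (6.81% called higher) and lowered KLF3 and KLF9 (8.9% called lower). Since the list was made with such results known, nothing is read from these counts against the shares of all genes. The median log2 fold change of the 10 members was -0.25 for ATRA and -0.33 for Am80, each relative to the untreated libraries, and over all genes it was -0.02 and -0.01. The comparisons share the untreated libraries or the libraries with a retinoid alone, so they are not independent of each other.

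**Figure D2:**
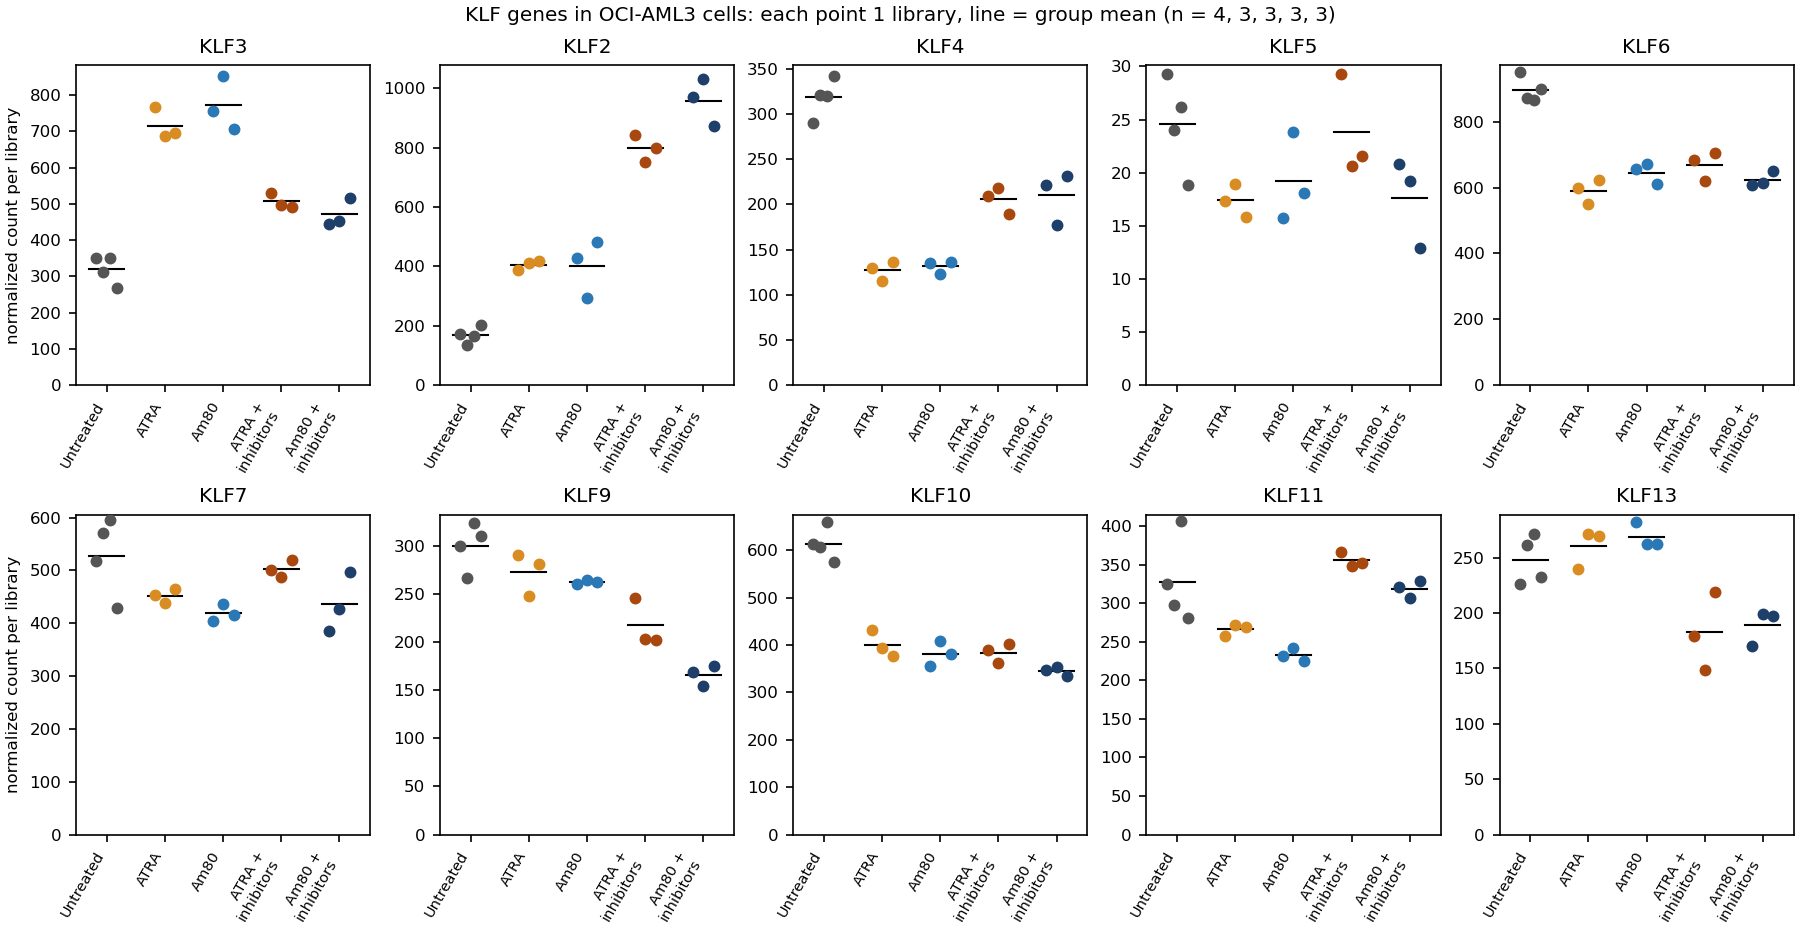
Normalized counts (vertical axes, from 0) of the 10 KLF genes in each of 16 libraries (points), by group, with a line at the group mean. KLF2 rose with each retinoid and again with the inhibitors, up to 1032 in an Am80 combination library, whereas KLF3 was highest with a retinoid alone and KLF4 was lowest there.

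Among the members that act as repressors through CtBP, KLF3 (ENSG00000109787.13, chromosome 4, 38664196 to 38701042 in GENCODE on GRCh38) is known as a broad repressor of hematopoietic genes. Its untreated libraries held 350.0, 313, 350.0 and 268 normalized counts, in the order of their replicate numbers. The ATRA libraries held 766, 686 and 695, and the Am80 libraries 757, 853 and 707. All 6 libraries with a retinoid alone were above all untreated libraries, and Am80 replicate 2 was the highest of them. KLF3 rose 2.24-fold with ATRA (log2 fold change 1.16, SE 0.09, adjusted p = 4.31e-09, limma) and 2.41-fold with Am80 (1.27, SE 0.09, adjusted p = 1.01e-09, limma), and by 1.20 on the log2 scale without Am80 replicate 2. With the inhibitors added, KLF3 had 531, 498 and 491 normalized counts beside ATRA and 445, 454 and 516 beside Am80. These 6 libraries lay between the groups, above every untreated library and below every library with a retinoid alone. KLF3 fell when the inhibitors joined Am80 (log2 fold change -0.71, SE 0.10, adjusted p = 1.35e-05, limma). When they joined ATRA it had -0.50 (adjusted p = 0.000445, limma), under the 1.5-fold limit, but past it with the GC trend removed (-0.74) or with scaling to total reads (-0.64). The difference between these effects was -0.21 (95% interval -0.51 to 0.09, adjusted p = 0.475, limma). Relative to untreated libraries KLF3 had log2 fold changes of 0.67 in the ATRA combination (adjusted p = 4.67e-06, limma) and 0.56 in the Am80 combination (adjusted p = 4.03e-05, limma), both close to the limit. The value in the Am80 combination passed it with quantile normalization (0.59) and without untreated replicate 1 (0.61), untreated replicate 3 (0.61), combination replicate 1 (0.60) or combination replicate 2 (0.59), and was 0.43 with the GC trend removed. The call with ATRA was lost with the GC trend removed (0.44), with scaling to total reads (0.52) and without untreated replicate 4 (0.58). The annotation places the antisense gene KLF3-AS1 on the opposite strand of KLF3, and reads of both could have been counted for either, since the strand setting of the counting is not given in the sources used here.

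KLF2 (ENSG00000127528.6, chromosome 19, 16324817 to 16327874) had the widest range of the members, 2.51 between the lowest and the highest group mean on the log2 scale. The untreated libraries held 173, 135, 164 and 204 normalized counts. With ATRA the values were 389, 411 and 417, and with Am80 428, 294 and 481. No library with a retinoid overlapped an untreated library, and the lowest Am80 value, in replicate 2, was also the lowest of the 6. KLF2 rose 2.41-fold with ATRA (log2 fold change 1.27, SE 0.14, adjusted p = 2.92e-07, limma) and 2.34-fold with Am80 (1.23, SE 0.14, adjusted p = 4.77e-07, limma). Without Am80 replicate 2 the value for Am80 was 1.43. The libraries with ATRA and inhibitors held 844, 751 and 800.2 normalized counts, and those with Am80 and inhibitors 970.2, 1032 and 873. Every combination library was above every library with a retinoid alone, and all 3 Am80 combination libraries were above all 3 ATRA combination libraries. The inhibitors raised KLF2 by 0.97 on the log2 scale beside ATRA (SE 0.15, adjusted p = 1.78e-05, limma) and by 1.28 beside Am80 (SE 0.15, adjusted p = 7.64e-07, limma), or by 1.07 without Am80 replicate 2. Against untreated cells KLF2 was 4.75-fold higher with the ATRA combination and 5.69-fold higher with the Am80 combination. The longest annotated transcript of KLF2 is rich in GC (65.2%), and with the GC trend removed these log2 fold changes became 2.76 and 2.80, compared with 2.25 and 2.51. The effect of the inhibitors on KLF2 was then 1.45 beside ATRA and 1.44 beside Am80.

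KLF4 (ENSG00000136826.15, chromosome 9, 107484852 to 107490482), the factor of monocyte differentiation that is also used in cell reprogramming, moved the other way. Its untreated libraries held 290.1, 320.5, 320.1 and 342 normalized counts. ATRA libraries held 130.2, 116 and 136, and Am80 libraries 136, 123 and 137. The highest of these 6 was below every library of any other group. KLF4 fell 2.49-fold with ATRA (log2 fold change -1.32, SE 0.11, adjusted p = 3.42e-09, limma) and 2.40-fold with Am80 (-1.26, SE 0.11, adjusted p = 6.2e-09, limma). The values were 209, 218 and 189.8 with the ATRA combination and 221, 177 and 232 with the Am80 combination. All 6 lay above the libraries with a retinoid alone and below the untreated ones. The inhibitors raised KLF4 by 0.69 on the log2 scale beside ATRA (SE 0.11, adjusted p = 4.98e-05, limma) and by 0.66 beside Am80 (SE 0.11, adjusted p = 9.71e-05, limma). With scaling to total reads these values were 0.54 and 0.54, under the limit. Against untreated cells KLF4 had log2 fold changes of -0.63 and -0.60 with the combinations, just past the limit, and with the GC trend removed they were -0.48 and -0.52, under it. Quantile normalization also took both values under the limit (-0.54 and -0.52). The call for ATRA was lost without replicate 3 of the ATRA combination (-0.57). That for Am80 was lost without replicate 2 of the Am80 combination (-0.49) or untreated replicate 4 (-0.57).

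**Figure D3:**
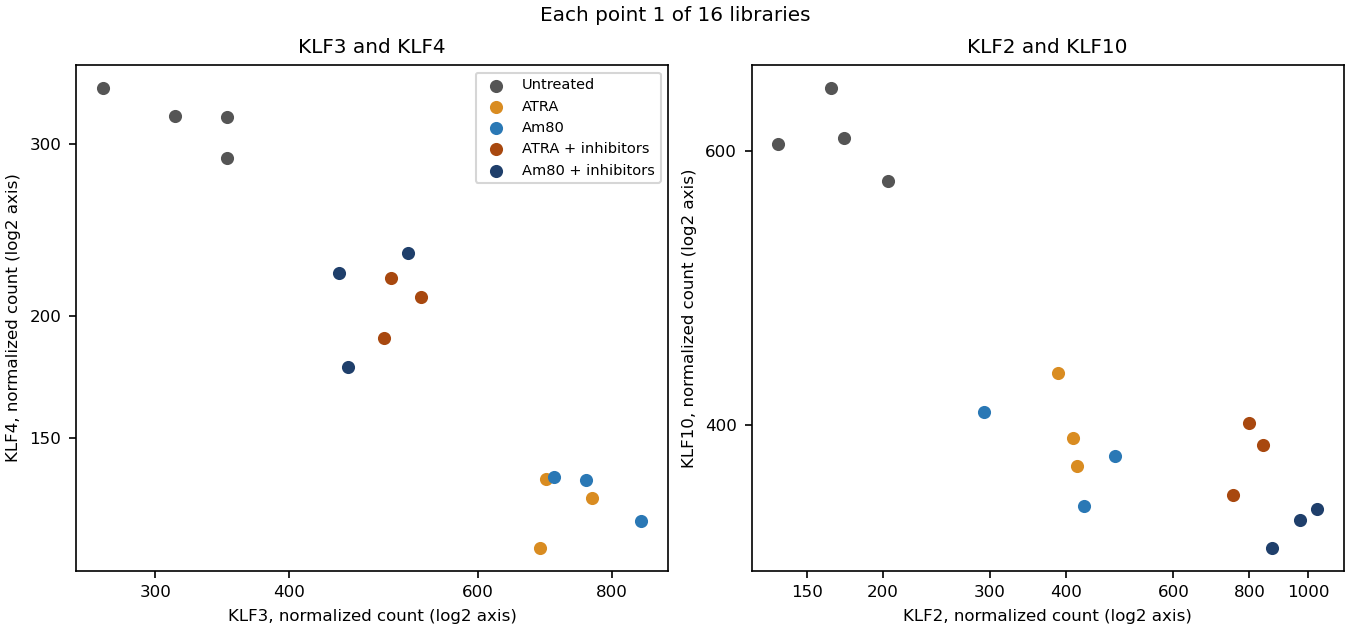
KLF4 against KLF3 (left) and KLF10 against KLF2 (right), normalized counts on log2 axes, with 1 point for each of 16 libraries. The untreated, retinoid and combination libraries form separate clusters in both panels, with KLF3 high and KLF4 low in the 6 libraries with a retinoid alone.

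The other activators changed less. KLF6 (ENSG00000067082.15, chromosome 10, 3775996 to 3785281), which has roles in macrophage activation, had 951, 871, 867 and 899.6 normalized counts when untreated, 599, 549 and 622 with ATRA and 655, 671 and 610.4 with Am80. No treated library of KLF6 reached the untreated range, and the libraries with inhibitors, between 608 and 704, overlapped those with a retinoid alone. KLF6 fell with ATRA (log2 fold change -0.61, SE 0.07, adjusted p = 1.02e-06, limma), a call that was lost without untreated replicate 1 (-0.58) or ATRA replicate 2 (-0.55). With Am80 its log2 fold change was -0.47 (adjusted p = 2.46e-05, limma), under the 1.5-fold limit, and it was -0.42 and -0.52 with the combinations. The value for the Am80 combination passed the limit with scaling to total reads (-0.71) or quantile normalization (-0.59). With the GC trend removed KLF6 had -0.53 and -0.56 with the combinations. KLF7 (ENSG00000118263.16, chromosome 2, 207074137 to 207167267), known from neuronal development, had 528 ± 73.8 (SD, n = 4) normalized counts without treatment and group means between 419 and 502 under treatment. Its libraries overlapped between untreated cells and every treated group, and it was called in 0 of the comparisons. The SD of KLF7 was largest in untreated cells, where replicate 4 was the lowest at 429. Several genes lie within KLF7 in the annotation, KLF7-IT1 and MIR2355 on its strand and MIR7845 on the other. KLF5 (ENSG00000102554.14, chromosome 13, 73054976 to 73077542), best known from the intestinal epithelium, was close to the detection limit, with 10 to 46 reads per library. Its group means lay between 17.4 and 24.6 normalized counts, and the 95% interval of its log2 fold change with ATRA was wide, from -0.95 to 0.03. In the Am80 combination relative to untreated cells it had -0.47 (95% interval -0.96 to 0.02), which passed the test with scaling to total reads (-0.64) and in none of the other settings.

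Of the members that bind SIN3A, KLF10 (ENSG00000155090.15, chromosome 8, 102648779 to 102655902), an early response gene of TGF-beta signalling, fell in all 4 treated groups. It had 612, 607, 659 and 574 normalized counts in untreated cells, 432, 392 and 377 with ATRA and 355, 408 and 382 with Am80. With the inhibitors it had 389, 361 and 401 beside ATRA and 348, 353 and 333 beside Am80. All 12 treated libraries were below all 4 untreated libraries. On the log2 scale the fall was -0.61 for ATRA (SE 0.08, adjusted p = 3.54e-06, limma), -0.68 for Am80 (SE 0.08, adjusted p = 7.69e-07, limma), -0.67 for the ATRA combination (adjusted p = 3.42e-07, limma) and -0.83 for the Am80 combination (adjusted p = 1.97e-08, limma). The fall with ATRA was close to the limit and the call was lost without untreated replicate 3 (-0.58) or ATRA replicate 3 (-0.57). The inhibitors gave KLF10 a further log2 fold change of -0.06 beside ATRA (95% interval -0.24 to 0.11) and -0.14 beside Am80 (95% interval -0.32 to 0.03).

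KLF9 (ENSG00000119138.5, chromosome 9, 70384597 to 70414624), a target of the glucocorticoid and thyroid hormone receptors, had 299.8, 266, 324 and 310.2 normalized counts in untreated cells, 290.2, 248 and 281 with ATRA and 259.9, 264 and 262 with Am80. Neither retinoid alone gave a called change. With the inhibitors it had 246, 203 and 202 beside ATRA and 169, 154 and 175 beside Am80. The 3 libraries of the Am80 combination were the lowest of all 16. Relative to untreated cells KLF9 fell with the Am80 combination (log2 fold change -0.85, SE 0.10, adjusted p = 2.82e-07, limma), while its value for the ATRA combination was -0.47 (adjusted p = 0.000337, limma), or -0.61 and past the limit with scaling to total reads. KLF9 fell on adding the inhibitors to Am80 (log2 fold change -0.66, SE 0.10, adjusted p = 4.09e-05, limma), and had -0.33 beside ATRA (SE 0.10, adjusted p = 0.0122, limma), under the 1.5-fold limit. The call beside Am80 was lost with quantile normalization (-0.55). The difference between the 2 effects was -0.33 (95% interval -0.63 to -0.02), which did not pass the test over all genes (adjusted p = 0.304, limma).

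KLF11 (ENSG00000172059.11, chromosome 2, 10042849 to 10054836), like KLF10 inducible by TGF-beta, had 327 ± 55.5 (SD, n = 4) normalized counts without treatment, with replicate 3 the highest at 406. It had 257, 272 and 269 with ATRA and 231, 242 and 225 with Am80, all 6 below the lowest untreated library at 280.3. The combinations held 366, 349 and 352 with ATRA and 321, 307 and 328 with Am80, within the untreated range. Relative to untreated cells the log2 fold change of KLF11 was -0.28 for ATRA (adjusted p = 0.0421, limma) and -0.48 for Am80 (adjusted p = 0.000943, limma), and on adding the inhibitors 0.42 beside ATRA (adjusted p = 0.00296, limma) and 0.45 beside Am80 (adjusted p = 0.00205, limma). All 4 stayed under the 1.5-fold limit. An antisense gene, AC104794.4, overlaps KLF11, so the origin of some of its reads is uncertain. KLF13 (ENSG00000169926.11, chromosome 15, 31326855 to 31435665), which activates CCL5 in T lymphocytes, had 248 ± 22 normalized counts (SD, n = 4) without treatment, 260.4 ± 17.6 (SD, n = 3) in ATRA libraries and 269 ± 11.7 (SD, n = 3) in Am80 libraries. It was lower with the inhibitors in every library, with 179.6, 149 and 219 beside ATRA and 169.9, 199 and 197 beside Am80. The log2 fold change they brought was -0.52 beside ATRA (adjusted p = 0.00145, limma) and -0.51 beside Am80 (adjusted p = 0.00236, limma), under the 1.5-fold limit. With the GC trend removed it was -0.28 beside ATRA (adjusted p = 0.0728, limma), and without replicate 3 of the ATRA combination it was -0.67, past the limit. With scaling to total reads both values passed it (-0.67 and -0.63). The longest annotated transcript of KLF13 has a GC content of 57.6%.

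**Figure D4:**
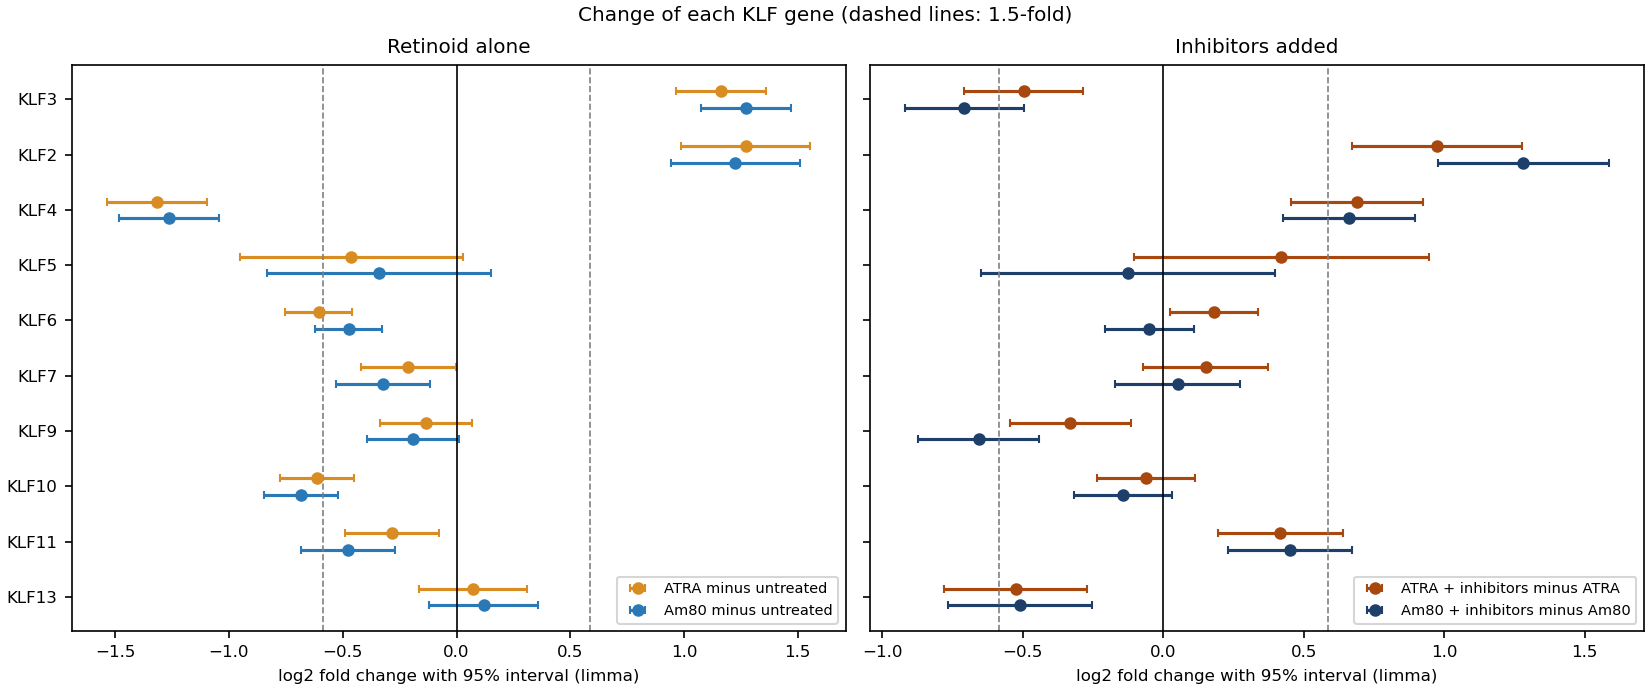
Log2 fold changes of the 10 KLF genes with 95% intervals from limma (horizontal axes), for each retinoid against untreated cells (left) and for both inhibitors added to each retinoid (right), with 1.5-fold marked by dashed lines. KLF2 lies to the right in both panels, whereas KLF3 and KLF4 lie on opposite sides in the left and right panels.

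ATRA and Am80 are related ligands that were used at the same dose and time, so their effects on the members were compared directly. Of 10 members, 0 were called between Am80 and ATRA (0.0478% of all genes called), 0 had an unadjusted p-value under 0.05, and edgeR and DESeq2 also called 0. The log2 difference, Am80 minus ATRA, was -0.05 for KLF2 (95% interval -0.35 to 0.26), 0.11 for KLF3 (-0.10 to 0.32) and 0.05 for KLF4 (-0.18 to 0.29). Of the 10 intervals, 9 lay inside the 1.5-fold limit in both directions, and that of KLF5, the least expressed member, reached past it (-0.40 to 0.65). Without Am80 replicate 2 the difference for KLF2 was 0.16. Between the combinations 0 members were called (0.0% of all genes called), 1 had an unadjusted p-value under 0.05, and edgeR and DESeq2 called 0. This was KLF9, with a log2 difference of -0.38 (95% interval -0.60 to -0.17, adjusted p = 0.134, limma), and all 3 of its Am80 combination libraries were below all 3 of its ATRA combination libraries. KLF2 had a difference of 0.26 (95% interval -0.04 to 0.56, adjusted p = 0.342, limma), also without overlap of the libraries, and 0.04 with the GC trend removed. For the interaction, the effect of the inhibitors on Am80-treated cells minus that on ATRA-treated cells, 0 members were called (0.0% of all genes called), 2 had an unadjusted p-value under 0.05 (KLF6 with -0.23 and KLF9 with -0.33 on the log2 scale, or -0.15 and -0.25 with the GC trend removed), and edgeR and DESeq2 called 0. A difference that misses the threshold does not show that the retinoids act alike.

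**Figure D5:**
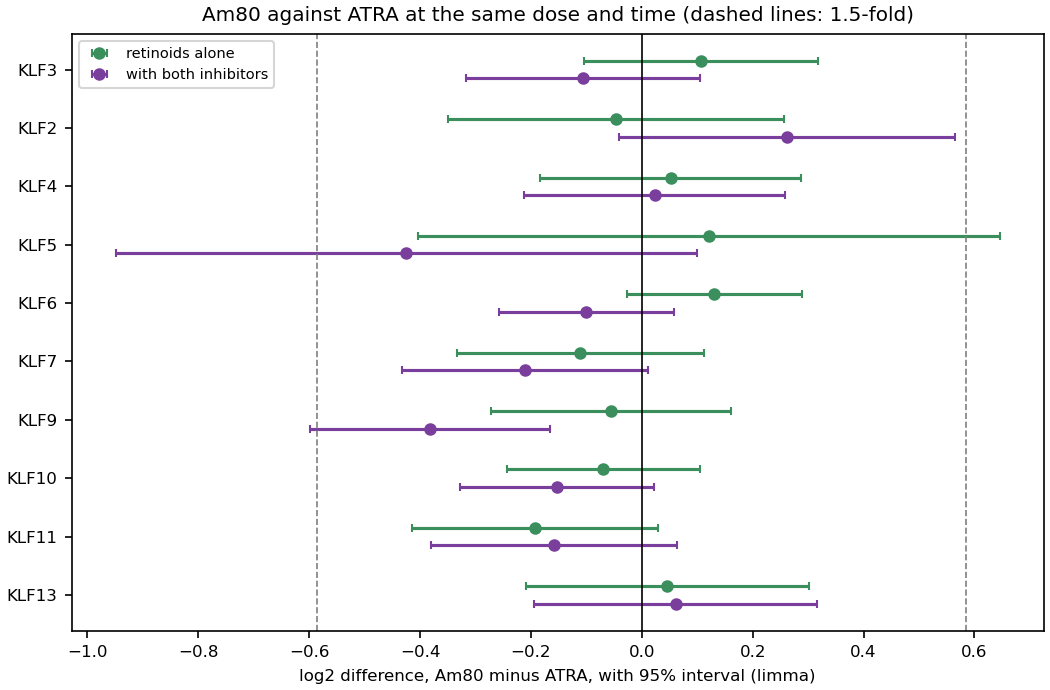
Log2 difference between Am80 and ATRA for the 10 KLF genes with 95% intervals from limma (horizontal axis), for the retinoids alone and with both inhibitors, with 1.5-fold marked by dashed lines. All intervals but that of KLF9 with both inhibitors, -0.60 to -0.17, include 0.

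For the 3 members with the widest range, the genes with the most similar pattern over the 16 libraries were looked up among all 11300 genes whose mean reached 50 normalized counts. Pearson's r describes mostly the differences between group means here, since libraries of a group lie close together. KLF2 was followed most closely by NHERF1, a scaffold protein (r = 0.992), GDF15, a stress-induced cytokine (r = 0.990), and OSM, the cytokine oncostatin M (r = 0.983). GDF15 went from a mean of 27.6 normalized counts in untreated cells to 136 with ATRA and 545 with the ATRA combination. KLF4 was followed by MS4A7, a membrane protein of monocytes and macrophages (r = 0.961), TBC1D4 (r = 0.957) and PID1 (r = 0.956). MS4A7 had means of 2735 in untreated cells, 1315 with ATRA and 1999.8 with the ATRA combination. KLF3 was followed by GPRIN3 (r = 0.982), ENSG00000289299 (r = 0.978) and ASAP2 (r = 0.976), and GPRIN3 had means of 19.2 in untreated cells, 137 with ATRA and 63.9 with the ATRA combination.

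The partners through which the members act changed in part. Of 9 corepressor genes, 1 was called lower with each retinoid alone (2.94% of all genes with ATRA, 3.76% with Am80) and 0 with each combination against untreated cells (14.8% and 13.1% of all genes called lower). SAP30, a subunit of the SIN3A complex, fell (log2 fold change -1.09 for ATRA and -0.67 for Am80) and had -0.57 and -0.57 with the combinations, just under the 1.5-fold limit, while CTBP1, CTBP2, SIN3A and SIN3B were called in 0 of the comparisons. Of 6 coactivator and ubiquitin ligase genes, 0 were called higher with ATRA (6.52% of all genes), 1 with Am80 (6.41%) and 4 with each combination (14.2% and 12.9%), and 0 lower. The call with Am80, of ITCH (0.59), was lost in several settings, among them without Am80 replicate 2 (0.50). The acetyltransferases CREBBP and EP300 rose with the ATRA combination by 0.97 and 0.81 on the log2 scale, and the ligase ITCH by 1.12. The median log2 fold change of these 6 genes was 0.77 there, against -0.00303 over all genes, and that of the 9 corepressor genes was -0.29. WWP1, a ligase that targets KLF2 and KLF5, rose on adding the inhibitors, by 0.79 beside ATRA and 0.61 beside Am80, or 0.48 and 0.50 and under the limit with the GC trend removed.

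Upstream of KLF2, 1 of 6 genes of the ERK5 and MEF2 arm fell with each retinoid alone (2.94% of all genes called lower with ATRA, 3.76% with Am80), and 1 rose and 1 fell with each combination (14.2% called higher and 14.8% lower with ATRA, 12.9% and 13.1% with Am80). MEF2D fell with ATRA (-0.78) and with Am80 (-0.89). MEF2A rose with the combinations (0.81 with ATRA, 0.73 with Am80, log2 fold change against untreated cells), and MEF2C rose on adding the inhibitors (0.85 beside ATRA, 0.69 beside Am80). With the GC trend removed MEF2A with the ATRA combination (0.58) and MEF2C (0.55 and 0.57) were under the limit. Of 6 TGF-beta receptor and SMAD genes, 1 was called higher with each retinoid alone (6.52% and 6.41% of all genes), which was SMAD3 (1.22 with ATRA, 1.13 with Am80). SMAD7, the inhibitory SMAD, fell with the combinations (-0.77 with ATRA, -0.80 with Am80), and the receptor TGFBR1 rose on adding the inhibitors to ATRA (0.62). With the GC trend removed SMAD7 with the ATRA combination (-0.50) and TGFBR1 (0.32) were under the limit, and the call of TGFBR1 was also lost without ATRA replicate 2 (0.56) or replicate 2 of the ATRA combination (0.58). Of 5 genes around the glucocorticoid receptor, 1 was called lower with each retinoid alone (2.94% and 3.76% of all genes), and 1 higher and 2 lower with each combination (14.2% higher and 14.8% lower with ATRA, 12.9% and 13.1% with Am80). The receptor NR3C1 rose with the ATRA combination (0.91), whereas its targets PER1 (-1.18) and ZBTB16 (-1.70) fell. In the same comparison the median log2 fold change was 0.05 for the ERK5 and MEF2 genes, 0.35 for the TGF-beta receptor and SMAD genes and -0.09 for the glucocorticoid receptor genes.

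Of 16 genes known to be regulated by Krüppel-like factors in other cells, 10 had enough reads, and 2 were called higher and 1 lower with ATRA (6.52% and 2.94% of all genes), 3 higher and 1 lower with Am80 (6.41% and 3.76%). Their median log2 fold change was 0.07 with ATRA, against -0.02 over all genes. THBD, thrombomodulin, a target of KLF2 in endothelial cells, rose with ATRA (log2 fold change 3.12) and Am80 (3.08), and its difference on adding the inhibitors was -0.31 beside ATRA and -0.24 beside Am80, neither called. The integrin gene ITGB7 rose with ATRA (0.84) and fell on adding the inhibitors to it (-0.73), or -0.44 and under the limit with the GC trend removed. CCND1, cyclin D1, fell on adding the inhibitors to ATRA (-0.86) and to Am80 (-1.02). PDGFA fell against untreated cells with each retinoid alone (-1.13 with ATRA, -1.41 with Am80). On adding the inhibitors, 0 of the 10 genes were called higher (8.15% of all genes beside ATRA, 6.81% beside Am80) and 3 lower beside each retinoid (11.4% and 8.9%). Whether any of these genes is bound by a member in OCI-AML3 cells was not measured. Of the 9 myeloid markers, 1 was called lower with ATRA (2.94% of all genes), 1 higher with Am80 (6.41%), 1 higher and 3 lower with the ATRA combination (14.2% and 14.8%) and 1 higher with the Am80 combination (12.9%), each relative to untreated cells. ITGAM, the integrin CD11b of mature myeloid cells, rose with Am80 alone (0.70) and with both combinations (1.03 and 1.03), and LYZ, lysozyme, fell with ATRA (-0.67). The call of ITGAM with Am80 alone was lost without untreated replicate 3 (0.58). With the ATRA combination CEBPA (-0.66) and MPO (-0.60) fell, and with the GC trend removed they had -0.11 and -0.33. Both calls were also lost without untreated replicate 4 (-0.55 and -0.54). That of MPO was lost in several other settings, among them without replicate 3 of the ATRA combination (-0.43). Others were quantile normalization (-0.54), a pseudocount of 5 (-0.54) and DESeq2 (-0.60, adjusted p = 0.0591, DESeq2). Their part in the members' levels was not tested.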

How the data were processed

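RNA-seq of OCI-AML3 cells was analysed from a table of the whole series. Its signal values were deposited by the authors as counts per gene normalized with DESeq2 size factors. The submitters' processing notes name FastQC, cutadapt, STAR, featureCounts and DESeq2. The genome build, annotation release and strand setting are not given in the sources used here, and labels and methods differ on the kits used to isolate RNA and prepare libraries. The values of every library stepped in whole reads (100% within 0.01 of a whole number), which gave 11963898 to 33789718 reads per library. TPM was computed from these reads and the summed exon length in GENCODE v29 (GRCh38), which also gave gene positions, and counting error at low reads limits the precision of KLF5.

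Values were tested as log2(normalized count + 1) with limma 3.58.1 (R 4.3.3) with a mean-variance trend, in a single fit of all 16 libraries with no covariate, after keeping the 14643 genes whose mean over libraries reached 10 normalized counts. Called genes had a Benjamini-Hochberg adjusted p-value under 0.05 and at least a 1.5-fold change. Fold changes are on the log2(value + 1) scale, which understates the change of low genes. The scripts were tested on simulated data. Alternatives were pseudocounts of 0.5 and 5, other filters, quantile normalization, scaling to total reads, a fit of only the groups compared, no fold limit, edgeR 4.0.16 and DESeq2 1.42.0 on the recovered reads, a replicate block and leaving out each library. Replicate pairs differed by more than counting noise (chi-square per degree of freedom from 2.69 to 28.2 over 18 pairs), so no library was counted as a duplicate.

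The members and gene lists were chosen with earlier results of these data known. The text names all members, other KLF and SP genes with enough reads, up to 4 called genes of each other list by the largest change, and the 3 genes most like each of the 3 members with the widest range. Lists for markers of myeloid, T and NK, erythroid and megakaryocyte, and epithelial and stromal cells were checked as well, and some marker results are not reported here.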

Additional observations from a re-analysis of the deposited data

How the results depend on the processing

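Of 2511 recomputed values for single members, 2433 were counted as unchanged. These were called values that stayed called, and values that stayed not called and within the SD between replicates, whatever their sign. A further 33 values passed the threshold, 19 no longer passed it, 26 not called moved by more than the SD between replicates, and 0 called values reversed. Without the fold limit, the number of members called was 7 for Am80 against untreated cells, 7 and 8 for the ATRA and Am80 combinations against untreated cells, and 6 for the inhibitors beside ATRA. This follows from the looser rule. Once each library's GC trend was removed, a setting added after seeing the data, 2 members (KLF2 and KLF10) differed between the ATRA combination and untreated cells. The cause was not tested. Leaving out single libraries gave 4 to 5 members for ATRA, 3 to 4 for the ATRA combination and 3 to 5 for the Am80 combination against untreated cells, and did not change the 4 for Am80.

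Same-numbered libraries had correlations of -0.112 to 0.187 between their deviations from group means, and 4 of 30 pairs were over 0.1. Differently numbered libraries had -0.229 to 0.23, and 11 of 72 pairs were over 0.1. No pairing by number was seen, though with so few libraries per group these values cannot exclude one. A fit with a replicate block, which leaves out untreated replicate 4, called 5, 4, 3 and 3 members for ATRA, Am80 and their combinations against untreated cells, 2 and 4 for the inhibitors beside ATRA and Am80, and 0 between the retinoids, between the combinations and for the interaction. Scaling to total reads moved the median log2 fold change of all genes to -0.15 for the ATRA combination and -0.19 for the Am80 combination against untreated cells, and members shifted with it. KLF2 was then at 2.10 and 2.32. Over the alternatives run, the log2 fold change against untreated cells ranged from 1.17 to 1.37 (ATRA) and 1.08 to 1.43 (Am80) for KLF2 and from -1.37 to -1.25 and -1.32 to -1.22 for KLF4. Depth limits KLF5 most, since no library had more than 46 of its reads.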

Other observations

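Among the KLF genes not on the list, KLF12, KLF15 and KLF16 had enough reads. KLF12, which like KLF3 recruits CtBP, had 377, 434, 452 and 312 normalized counts in untreated cells, 1002, 948 and 942 with ATRA and 928, 1076 and 961 with Am80, without overlap between untreated and treated libraries. KLF12 rose with ATRA (log2 fold change 1.30, SE 0.10, adjusted p = 1.03e-09, limma) and with Am80 (1.34, SE 0.10, adjusted p = 6.68e-10, limma). On adding the inhibitors its log2 fold change was 0.14 beside ATRA (95% interval -0.08 to 0.36) and -0.02 beside Am80 (95% interval -0.23 to 0.20), where KLF3 had -0.50 and -0.71. The difference between KLF12 and KLF3 was not tested.

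KLF16, a SIN3A-binding member, had 1121, 1096, 1074 and 1332 normalized counts in untreated cells, 893, 558 and 845 with Am80, and means of 808 with ATRA, 552 with the ATRA combination and 664 with the Am80 combination. It fell with Am80 (-0.62), the ATRA combination (-1.06) and the Am80 combination (-0.80), and its value with ATRA was -0.51, under the 1.5-fold limit. The call with Am80 was lost without Am80 replicate 2 (-0.41), the lowest of its libraries and the one that stood apart in depth and GC trend, and without untreated replicate 4 (-0.55). With the GC trend removed all 3 calls were lost (-0.45, -0.44 and -0.43). Antisense genes overlap KLF16, so the origin of its reads is uncertain. KLF15 had 48.3 normalized counts in untreated cells and 19.1 with the ATRA combination, a log2 fold change of -1.29 (adjusted p = 0.000149, limma). It also fell with the Am80 combination, with ATRA alone (-0.83) and on adding the inhibitors to Am80 (-0.69). The call with ATRA alone was lost without ATRA replicate 1 (-0.58) or untreated replicate 3 (-0.71). The call on adding the inhibitors to Am80 was lost in several settings, among them edgeR, DESeq2 and without Am80 replicate 1 (-0.51).

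Of 9 SP genes, which encode the related specificity proteins that bind the same GC boxes, SP1, SP2, SP3 and SP4 had enough reads. SP2 rose with the ATRA combination (0.71) and the Am80 combination (0.74), and with scaling to total reads both values were under the limit (0.56 and 0.56). SP1, SP3 and SP4 were called in 0 of the comparisons, with log2 fold changes of 0.54, 0.42 and 0.06 for the ATRA combination against untreated cells.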
